A study of Rattus norvegicus with 294 samples.

Results

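The CCN family matricellular proteins were followed as 5 genes, Ccn1 (Cyr61), Ccn2 (Ctgf), Ccn3 (Nov), Ccn4 (Wisp1) and Ccn5 (Wisp2), out of the 14217 genes represented on the array. Members were taken as the probe sets annotated to one of these genes alone under its current or older name, and where a gene had several the brightest was to be used. Each gene had 1 such probe set, 1368290_at for Ccn1, 1367631_at for Ccn2, 1368883_at for Ccn3, 1370221_at for Ccn4 and 1369484_at for Ccn5. The animals were female Sprague-Dawley rats, ovariectomized when 6 months old and then kept without treatment for 8 weeks, so the vehicle rats were ovariectomized too. Vehicle, or an antibody against sclerostin (Scl-Ab) at 3 or 50 mg/kg, was injected under the skin each week until day 183. All 3 treatments were sampled on days 8, 29, 85 and 183 of dosing. After dosing stopped, vehicle and 3 mg/kg rats were sampled on days 197 and 267, and vehicle and 50 mg/kg rats on days 237 and 309, which are 14, 84, 54 and 126 days after day 183. Osteoblasts, lining cells and osteocytes were laser-captured from cryosections 4 to 6 µm thick of lumbar vertebra 3, with calcein given beforehand to mark forming surfaces. Amplified RNA was measured on Affymetrix rat expression arrays, 97 of osteoblasts, 100 of lining cells and 97 of osteocytes, in 60 groups of 3 to 5 arrays.

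CCN proteins are secreted, cysteine-rich proteins of the extracellular matrix that act on cells through integrins, proteoglycans and bound growth factors. Ccn1 and Ccn2 are classic targets of YAP and TAZ, the mechanically regulated co-activators that bind DNA through TEAD factors, and Ccn2 also responds to TGF-beta. Ccn4 and Ccn5 were named as secreted proteins induced by Wnt1, Ccn3 is known for its links to Notch, and Ccn5 lacks the C-terminal module that the other members carry. Sclerostin is an osteocyte product that blocks Wnt signalling at the co-receptors Lrp5 and Lrp6, and the antibody removes that block.

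The promoters of Ccn1 and Ccn2 are shown because both genes are textbook TEAD targets and Ccn2 was the member with the largest differences from vehicle. These are the 250 bases before the start site from RefSeq (build GRCr8), on the gene's strand, at chr2:237225690-237225939 (minus strand) for Ccn1 and at chr1:22624615-22624864 (minus strand) for Ccn2. Capitals mark matches to TEAD letters (GGAATG, or CATTCC on the other strand), SMAD letters (CAGACA) and a TATA box (TATAAA), searched on both strands.
Ccn1: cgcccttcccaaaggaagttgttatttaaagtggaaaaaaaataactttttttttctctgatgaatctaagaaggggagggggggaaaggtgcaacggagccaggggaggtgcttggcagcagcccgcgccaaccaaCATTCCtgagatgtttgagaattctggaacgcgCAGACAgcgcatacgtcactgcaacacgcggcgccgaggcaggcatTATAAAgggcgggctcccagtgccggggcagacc
Ccn2: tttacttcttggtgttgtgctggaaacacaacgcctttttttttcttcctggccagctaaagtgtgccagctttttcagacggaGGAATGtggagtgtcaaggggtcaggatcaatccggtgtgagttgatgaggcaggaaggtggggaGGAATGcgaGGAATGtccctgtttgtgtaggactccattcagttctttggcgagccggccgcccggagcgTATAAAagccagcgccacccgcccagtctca
Ccn2 held 3 TEAD matches, whose first bases lay at -166, -101 and -92 from the start site, and a TATA box at -31. Ccn1 held 1 TEAD match on the other strand at -113, a SMAD match at -80 and a TATA box at -34. Neither held the TCF/LEF letters CTTTGA or the AP-1 letters TGACTCA. Of 33469 promoter windows of this length, 12.1% held at least 1 TEAD match and 27 of them, 0.0807%, held 3 or more. SMAD letters were in 17.2% of the windows, TATA letters in 12.9%, TCF/LEF letters in 13.9% and AP-1 letters in 4.05%. No promoter of Ccn3, Ccn4 or Ccn5 is printed.

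All values are log2 of the deposited array intensities, and differences are log2 differences with standard errors from limma, called at a Benjamini-Hochberg adjusted p under 0.05 over all genes tested. The labels do not name the rat behind each array. Cells were captured from 5 animals per group, and no cell type has more than 5 arrays of a treatment and day. Captures of different cell types therefore very likely share rats, but which arrays do is not known. They were treated as independent, and the p-values measure the spread between these arrays. Against their defining markers, vehicle osteocyte arrays were high in Dmp1 (mean 10.59) and Mepe (10.64), both osteocyte matrix proteins, compared with 7.43 and 6.09 in osteoblast arrays and 6.27 and 5.73 in lining cell arrays (n = 40 each). Sost, which encodes sclerostin, was above the array median in only 11 of the 40 osteocyte arrays and in 0 of the others. Col1a1, the main bone collagen chain, was no higher in osteoblast arrays (10.40) than in osteocyte arrays (10.97), and lining cell arrays had 8.38. The osteoclast protease Ctsk (11.78 to 12.89) and the globin Hbb (12.31 to 13.14) were high in all 3 cell types, so transcripts typical of other cells were present in all captures. Array medians ran from 3.43 to 3.72 in osteoblasts, 3.14 to 3.36 in lining cells and 2.89 to 3.12 in osteocytes, and deposited levels are therefore compared within a cell type.

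Ccn2 and Ccn4 rose in osteocytes of rats given 50 mg/kg, Ccn2 by 4.71-fold to 6.23-fold from day 29 to day 183 and Ccn4 on each of the 4 dosing days by 2.05-fold to 4.09-fold. The Ccn4 call on day 8 ended in 7 of 10 cases of leaving out 1 array, and that on day 85 with array weights. Both genes were still higher on day 237, 54 days after day 183, and neither passed the test on day 309, although for Ccn4 that rested on 1 array. In osteoblasts the 2 genes parted on day 29 at 50 mg/kg, where Ccn2 fell and Ccn4 rose, and in lining cells no member passed in any comparison with vehicle. Ccn5 moved less, and Ccn1 and Ccn3 lay in the lower part of the signal throughout. In bulk captures such as these, fewer cells of a type and less RNA per cell cannot be told apart.

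Ccn1, an immediate early gene of matrix and vessel remodelling, was above its array's median in 0 of the 294 arrays, with levels from 2.14 to 3.49 in osteoblasts, up to 3.06 in lining cells and 1.89 to 2.76 in osteocytes. Ccn3, often described as opposing osteoblast differentiation, was above the median in 1 osteoblast, 4 lining cell and 3 osteocyte arrays. Its levels ran from 2.47 to 3.89, 2.34 to 3.60 and 1.93 to 3.48. A gene had to be above the array median in at least 5 arrays of a fit to be tested, so 3 of the 5 members, Ccn2, Ccn4 and Ccn5, were tested in each cell type. With the filter removed, the one comparison of Ccn1 or Ccn3 with vehicle to pass was Ccn1 in osteocytes on day 237 after 50 mg/kg. There the 5 antibody arrays read 2.42, 2.68, 2.46, 2.68 and 2.21 and the 5 vehicle arrays 2.06, 2.02, 2.25, 2.22 and 2.21, a difference of 0.34 (adjusted p = 0.0273). All 10 of these values were below the medians of their arrays, and the groups overlapped.

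Ccn2, a secreted effector of TGF-beta and YAP signalling, was above the array median in all 97 osteocyte arrays. On day 8 the 50 mg/kg arrays read 6.96, 7.50, 7.07, 7.10 and 7.05 and the vehicle arrays 6.76, 7.12, 6.97, 6.71 and 6.41. The groups overlapped, and the difference of 0.34 (SE 0.34) did not pass (adjusted p = 0.742, with 0.928% of the 11859 genes passing on that day). On day 29 the antibody arrays read 8.13, 8.88, 8.82, 7.70 and 8.19, all above the vehicle arrays at 5.57, 6.77, 5.17, 6.25 and 6.77. Ccn2 had risen by 2.24 (SE 0.34, adjusted p = 1.99e-06), with 6.50% of genes passing. On day 85 the 3 antibody arrays at 8.97, 9.12 and 9.11 were the highest Ccn2 values of the series, against 6.41, 6.43, 7.54, 7.05 and 5.41 in vehicle. That difference was 2.50 (SE 0.39, adjusted p = 2.13e-06), with 10.1% of genes passing. On day 183 vehicle arrays had dropped to 5.51, 5.12, 4.41, 5.16 and 5.01 while antibody arrays read 7.49, 7.79, 7.17, 8.14 and 7.83. The groups were again apart, by 2.64 (SE 0.34, adjusted p = 1.28e-08), with 6.38% of genes passing. The size of the response on day 183 minus that on day 8, averaged over both doses, was 1.50 (SE 0.41) and did not pass (adjusted p = 0.0715). Growth of this averaged response over dosing was therefore not called, although fits of the groups compared alone and with array weights did call it (adjusted p = 0.00129 and 0.00881). Growth at 50 mg/kg alone was not tested.

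At 3 mg/kg, Ccn2 in osteocytes ran from 6.22 to 7.38 on day 8, 6.12 to 6.64 on day 29, 6.44 to 7.93 on day 85 and 5.49 to 6.27 on day 183, overlapping vehicle on all 4 days. The differences from vehicle were 0.04, 0.28, 0.68 and 0.75, and none passed, with the smallest adjusted p, 0.349, on day 85. Not passing does not show that this dose left Ccn2 unchanged. Few genes passed at this dose, 0.00843%, 0, 1.46% and 0 of those tested on the 4 days. Of the 11859 genes, 429 on day 29 and 549 on day 183 had an unadjusted p under 0.05 in limma. Both numbers are below what chance alone gives at that threshold. The dose difference was therefore tested directly. Over the 4 dosing days, Ccn2 was higher at 50 than at 3 mg/kg by 1.49 (SE 0.18, 95% interval 1.14 to 1.85, adjusted p = 5.73e-10), with 15.0% of genes passing. By day the dose difference was 0.30 on day 8, which did not pass (0.0422% of genes did), and 1.96, 1.82 and 1.89 on days 29, 85 and 183 (adjusted p = 0.000122, 0.00106 and 0.000106), where 6.34%, 7.05% and 2.80% of genes passed. Averaged over both doses and all dosing days, Ccn2 was higher than vehicle by 1.18 (SE 0.15, adjusted p = 7.08e-09), with 34 of 37 antibody arrays above the vehicle mean of their day and 6.90% of genes passing.

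After dosing stopped, Ccn2 in osteocytes stayed high for a time at the higher dose. On day 237 the arrays read 8.27, 8.39, 8.87, 8.57 and 8.82 against 6.08, 7.74, 6.34, 6.23 and 4.86 in vehicle, without overlap. The difference was 2.33 (SE 0.34, adjusted p = 1.92e-07), with 13.2% of genes passing. On day 309 the groups overlapped, at 7.13, 7.28, 6.08, 6.66 and 6.32 against 6.28, 6.58, 6.69, 5.43 and 6.46, and the difference of 0.41 did not pass (adjusted p = 0.454), with 16.4% of genes passing. Tested against the response on day 183, the response on day 309 was smaller by a difference of -2.23 (SE 0.48, adjusted p = 0.00108), with 10.4% of genes passing. For day 237 that difference was -0.30 (95% interval -1.26 to 0.65). After 3 mg/kg the differences from vehicle were -0.88 on day 197 and 0.87 on day 267, of opposite sign, and neither passed (adjusted p = 0.199 and 0.148, with 1.11% and 3.63% of genes passing). The day 197 difference was called with array weights (-0.89, adjusted p = 0.0274) and the day 267 difference when only its 2 groups were fitted (adjusted p = 0.0169).

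Ccn4, a Wnt1-inducible secreted protein that binds bone matrix proteoglycans, was above the array median in 96 of 97 osteocyte arrays. On day 8 it read 5.87, 5.66, 5.26, 5.33 and 5.68 at 50 mg/kg against 4.33, 4.33, 4.65, 4.31 and 5.01 in vehicle. All antibody arrays were above all vehicle arrays, and Ccn4 was the one member called in osteocytes on day 8, by 1.03 (SE 0.26, adjusted p = 0.0280). That call ended when any 1 of antibody replicates 1, 2 and 5 or vehicle replicates 1, 2, 3 and 4 was left out, and the difference without 1 array ran from 0.95 to 1.15. On day 29 the antibody arrays read 5.85, 6.48, 6.36, 6.24 and 6.64 against 4.11, 4.66, 4.89, 4.90 and 4.33. Ccn4 had risen by 1.73 (SE 0.26, adjusted p = 1.53e-06), again without overlap. On day 85 the 3 antibody arrays at 5.36, 5.66 and 5.35 lay above vehicle at 4.11, 3.97, 4.50, 4.23 and 4.57. The rise of 1.18 (SE 0.30, adjusted p = 0.00476) did not pass when arrays were weighted by their quality (adjusted p = 0.159). On day 183 the antibody arrays read 6.26, 5.93, 6.40, 6.10 and 6.23 against 4.12, 3.88, 4.56, 3.97 and 4.22. That rise of 2.03 (SE 0.26, adjusted p = 1.21e-08) was the largest difference of Ccn4 from vehicle at one dose and day.

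At 3 mg/kg, Ccn4 in osteocytes differed from vehicle by 0.77, -0.17, 0.40 and 0.36 on the 4 dosing days, and none passed. On day 8 the 3 mg/kg arrays read 5.51, 4.90, 5.05, 5.67 and 5.38, so that 4 of the 5 lay above the highest vehicle array. The dose difference over the dosing days was 1.16 (SE 0.14, 95% interval 0.88 to 1.43, adjusted p = 4.46e-10). By day it was 1.90 on day 29 and 1.67 on day 183 (adjusted p = 1.17e-06 and 4.78e-06), and it did not pass on day 8 (0.26) or day 85 (0.79, adjusted p = 0.0968). Over both doses and all dosing days Ccn4 was higher than vehicle by 0.92 (SE 0.11, adjusted p = 5.27e-09), in 31 of 37 antibody arrays. In osteocytes, 36 comparisons of Ccn2, Ccn4 or Ccn5 with vehicle were made at one dose and day, during and after dosing. Of these, 12 were called and 22 had an unadjusted p under 0.05 in limma.

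Ccn4 in osteocytes also stayed high on day 237, where the arrays read 5.53, 6.64, 5.04, 5.28 and 5.49 against 3.06, 4.88, 4.20, 4.55 and 4.14. The groups did not overlap, and the difference was 1.43 (SE 0.26, adjusted p = 2.62e-05). On day 309 it was 0.55 (adjusted p = 0.139), but without antibody replicate 3 it was 0.80 and was called (adjusted p = 0.0201), and the response was smaller than on day 183 by a difference of -1.48 (SE 0.37, adjusted p = 0.00470). After 3 mg/kg, Ccn4 was 0.95 higher on day 267 (adjusted p = 0.0203), with arrays at 5.72, 4.00, 4.76, 5.48 and 4.52 overlapping vehicle at 3.85, 3.87, 4.07, 4.27 and 3.67. That call ended under quantile normalization and without antibody replicates 1 or 4 or vehicle replicate 5, with differences from 0.74 to 1.17 when 1 array was left out.

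Ccn5, the member without the C-terminal module, was above the array median in 67 of 97 osteocyte arrays. On day 183 the 50 mg/kg arrays read 3.32, 3.50, 3.13, 3.73 and 3.29, all above vehicle at 2.76, 2.65, 2.85, 2.86 and 2.88. Ccn5 had risen by 0.59 (SE 0.13, adjusted p = 0.00143). On day 237 it was 0.51 higher (SE 0.13, adjusted p = 0.00531), with arrays at 3.92, 4.08, 3.56, 4.37 and 3.90 and vehicle at 3.83, 3.48, 3.33, 3.39 and 3.26. These groups overlapped, and the call ended when only the 2 groups were fitted. On days 8, 29 and 85 the differences were -0.16, -0.09 and 0.34, and none passed. The dose difference was called on day 85 alone (0.52, adjusted p = 0.0257), a call that ended with array weights, with only the groups compared, and without 3 mg/kg replicates 3 or 4 or 50 mg/kg replicates 1 or 3 (0.41 to 0.62). With array weights it was also called on day 183 (0.35, adjusted p = 0.0377). Over both doses and all dosing days Ccn5 was 0.10 higher (adjusted p = 0.354).

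**Figure D1:**
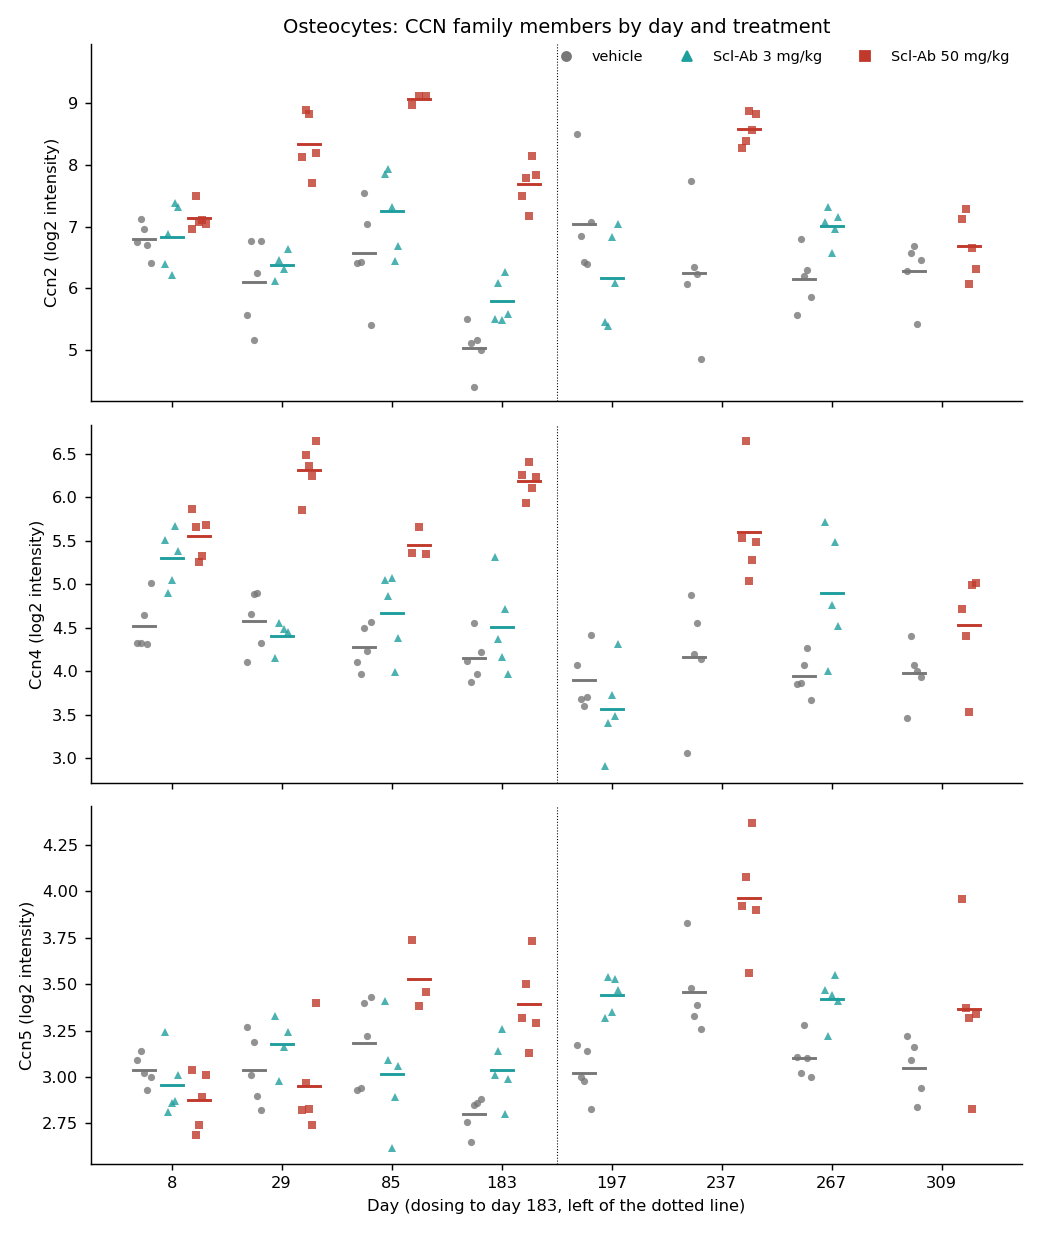
Log2 array intensity of Ccn2, Ccn4 and Ccn5 in osteocytes by day, one point per array and a bar at each group mean, for vehicle, 3 mg/kg and 50 mg/kg. At 50 mg/kg, Ccn2 and Ccn4 lay above every vehicle array of the same day on days 29, 85, 183 and 237, and on day 309 the groups overlapped.

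Several marker lists also changed in osteocyte arrays at 50 mg/kg, not always on the same days as Ccn2 and Ccn4. Mean levels of a marker list are over all its genes on the array, including those not tested. Of the 7 osteocyte markers listed, 6 were on the array and 5 were tested. All 5 rose on day 29 at 50 mg/kg, 4 rose on day 85, 3 on day 183, 4 on day 237 and 3 on day 309. On day 183 these included Mepe (2.82), Pdpn, a marker of dendrite formation (2.48), and Dmp1 (2.17). The mean level of the osteocyte list on day 183 was 5.35 in vehicle (5.15 to 5.62 over arrays) and 6.70 at 50 mg/kg (6.55 to 6.86). On day 309, when Ccn2 and Ccn4 did not pass, it was 5.12 (4.61 to 5.81) and 6.10 (5.37 to 6.45). Of 9 endothelial markers tested, 0 passed on day 29 and 5 rose on day 183, among them Emcn (2.25) and Tek (1.16). The mean level of the endothelial list was 3.99 (3.75 to 4.20) in vehicle and 4.13 (4.04 to 4.24) at 50 mg/kg on day 29, and 3.93 (3.81 to 4.01) and 4.49 (4.18 to 4.65) on day 183. Of 6 smooth muscle and pericyte markers tested, 1 rose on day 29 (Cspg4, 1.53) and 3 on day 183 (Rgs5, Cspg4 and Myh11), with mean levels of 3.56 (3.38 to 3.75) and 3.92 (3.64 to 4.15) on day 29 and of 3.62 (3.55 to 3.75) and 4.33 (4.20 to 4.44) on day 183. On day 85, 4 of the 9 endothelial and 4 of the 6 smooth muscle and pericyte markers rose, with median differences of 0.45 and 1.16. On day 237, 5 endothelial markers rose (median 0.52, mean level 4.20 in vehicle and 4.77 at 50 mg/kg) and 4 smooth muscle and pericyte markers rose (median 1.28, mean level 3.50 and 4.38). On that day 6 of 9 osteoblast markers fell (median -1.29, mean level 8.63 and 7.63), among them Bglap (-2.11) and Col1a1 (-1.87), and 6 of 8 erythroid markers fell (median -0.90, mean level 9.17 and 8.23). On day 309, 6 osteoblast markers and 6 of 8 skeletal muscle markers rose and 4 erythroid markers fell. The part of the marker changes in the rise of Ccn2 and Ccn4 was not tested. The signal range of an array, the 90th minus the 50th percentile of its log2 values, differed little between these groups (2.93 in vehicle and 2.90 at 50 mg/kg on day 29, 2.63 and 2.76 on day 183).

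In osteoblasts, 3 of the 36 comparisons of Ccn2, Ccn4 or Ccn5 with vehicle at one dose and day were called. An unadjusted p under 0.05 in limma was found in 9. On day 29 at 50 mg/kg, Ccn2 read 5.50, 5.15, 5.82, 4.89 and 4.84, below every vehicle array at 6.56, 6.67, 6.75, 6.69 and 6.93. Ccn2 fell by 1.48 (SE 0.26, adjusted p = 2.09e-05) where in osteocytes of the same dose and day it rose. Ccn4 on the same arrays read 5.82, 5.07, 5.04, 6.10 and 5.58, above every vehicle array at 3.76, 3.96, 4.25, 4.86 and 3.96. Its rise was 1.36 (SE 0.22, adjusted p = 7.14e-06). This comparison called 28.4% of the 11412 genes tested, the largest share of the 12 osteoblast comparisons with one dose and day, whose others called between 0 and 10.7%. On that day the average signal range was 3.53 without antibody, 3.41 at the lower and 3.16 at the higher dose. With signal range as a covariate the number of genes called dropped from 3241 to 531, and both calls stayed, at -1.06 for Ccn2 (adjusted p = 0.00974) and 1.20 for Ccn4 (adjusted p = 0.000819). Of 9 osteoblast markers tested, 6 rose and 2 fell on that day. Averaged over all listed genes on the array, tested or not, osteoblast markers were at 8.57 (8.19 to 9.04) in vehicle and 9.36 (9.15 to 9.51) at 50 mg/kg. Osteoclast markers averaged 8.54 (8.26 to 8.81) and 7.81 (7.70 to 8.13), with 2 of 3 tested having fallen, and megakaryocyte markers 7.50 (7.22 to 8.09) and 8.14 (7.74 to 8.48), with 4 of 7 having risen. The part of these markers in the 2 calls was not tested.

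The remaining osteoblast call came after dosing. On day 309 after 50 mg/kg, Ccn2 read 6.04, 6.21, 6.25, 5.26 and 5.90 against 5.04, 4.52, 4.64, 4.38 and 4.93 in vehicle. The groups did not overlap, and Ccn2 was 1.23 higher (SE 0.26, adjusted p = 0.00165, with 10.5% of genes passing). Signal range averaged 3.41 against 3.08 in vehicle, and with it as a covariate the difference was 0.86 and was not called (adjusted p = 0.193). Osteoclast markers averaged 8.41 (8.29 to 8.64) against 7.71 (7.41 to 8.23), and 2 of 3 tested rose. Their part was not tested. On day 183 neither gene differed, with Ccn2 at 0.18 and Ccn4 at 0.03 from vehicle at 50 mg/kg. Over both doses and all dosing days, Ccn4 was 0.33 higher (SE 0.09, adjusted p = 0.0263, 27 of 38 arrays, with 5.77% of genes passing), a call that ended when only the groups compared were fitted (adjusted p = 0.0615). Ccn2 was lower by a difference of -0.31 (adjusted p = 0.0851), which was called with signal range as a covariate (-0.34, adjusted p = 0.0293). Its day 8 difference at 50 mg/kg, -0.64 (adjusted p = 0.112), was called with array weights and with that covariate (adjusted p = 0.0302 and 0.0459). Ccn5 was called in no osteoblast comparison with vehicle, and its dose differences from vehicle ran from -0.14 to 0.44.

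In lining cells, limma called 0 of the 36 comparisons of Ccn2, Ccn4 or Ccn5, and 3 had an unadjusted p under 0.05. Those were Ccn2 and Ccn4 on day 8 at 50 mg/kg and Ccn5 on day 183 at 50 mg/kg. Ccn2 on day 8 read 5.31, 4.66, 4.06, 5.28 and 5.56 against 5.63, 5.87, 6.25, 5.16 and 5.68 in vehicle, a difference of -0.74 (adjusted p = 0.266). Ccn4 on day 8 read 3.77, 3.64, 3.97, 4.14 and 4.08 against 4.01, 3.57, 3.19, 3.27 and 3.19, a difference of 0.47 (adjusted p = 0.247). Both pairs of groups overlapped. Ccn5 on day 183 differed by 0.46 (adjusted p = 0.206), and with array weights this was called, at 0.50. The share of genes called in lining cells was itself low, between 0 and 1.45% for one dose and day and 0.216% for the mean of both doses. The 95% interval for the dosing mean of Ccn4 in lining cells was 0.00 to 0.32, and its estimate was 0.16.

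**Figure D2:**
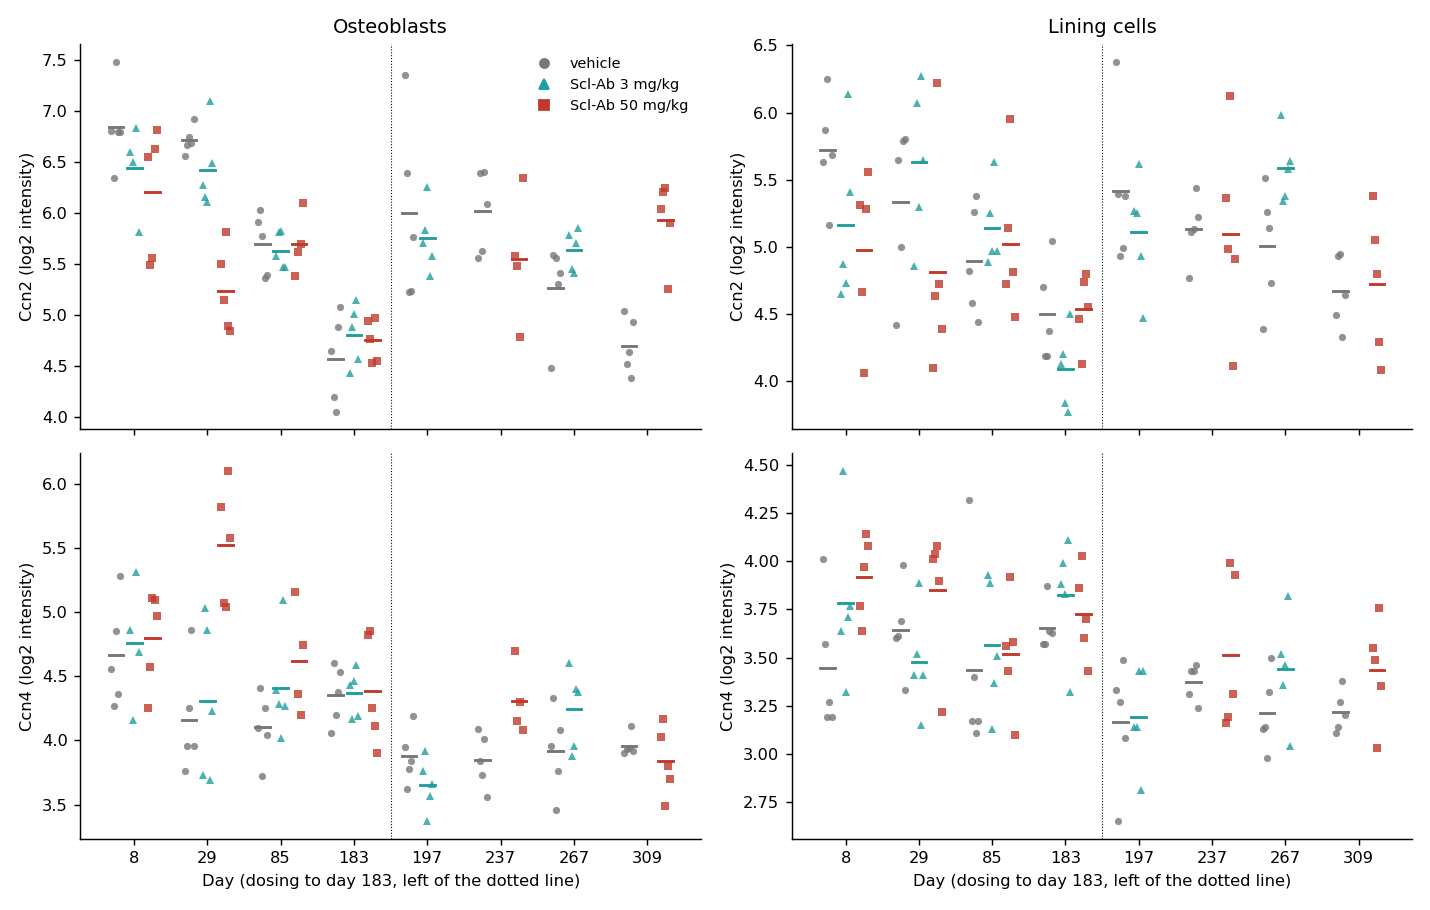
Log2 array intensity of Ccn2 and Ccn4 in osteoblasts and lining cells by day, one point per array and a bar at each group mean, for vehicle, 3 mg/kg and 50 mg/kg. On day 29 at 50 mg/kg in osteoblasts, Ccn2 averaged 5.24 against 6.72 in vehicle and Ccn4 5.52 against 4.16, and lining cell groups overlapped in the comparisons with vehicle described in the text.

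The responses of the cell types were compared directly in a fit of all 294 arrays, on 12507 genes. Over both doses and the 4 dosing days, the Ccn2 response was lower in osteoblasts than in osteocytes by a difference of -1.49 (SE 0.19, adjusted p = 3.84e-10, with 3.57% of genes passing). The responses in the fits by cell type were -0.31 in osteoblasts, which was not called, and 1.18 in osteocytes. In lining cells the Ccn2 response was lower than in osteocytes by -1.37 (SE 0.19, adjusted p = 9.17e-09, with 2.67% passing). The Ccn4 response was smaller than in osteocytes by -0.59 in osteoblasts (SE 0.14, adjusted p = 0.00369) and by -0.76 in lining cells (SE 0.14, adjusted p = 4.51e-05). Leaving out replicate 2 of every group ended the Ccn4 call for osteoblasts (-0.51, adjusted p = 0.0533). Between osteoblasts and lining cells no member's response differed past the threshold on any day. The Ccn2 difference on day 309 after 50 mg/kg, 1.17 (adjusted p = 0.0601), was called without replicate 1 of every group (1.44, adjusted p = 0.0302). Over the dosing days the differences were -0.12 (95% interval -0.49 to 0.26) for Ccn2 and 0.16 (-0.11 to 0.44) for Ccn4. Ccn5 responses differed by 0.00 and 0.01 from those of osteocytes, with intervals within -0.19 to 0.20.

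By day, the Ccn2 response in osteoblasts was below that in osteocytes by a difference of -2.14 on day 29, -1.62 on day 85 and -1.48 on day 183 (adjusted p = 0.000135, 0.00884 and 0.0318, with 1.14%, 2.02% and 0.488% of genes passing). In lining cells it was lower by -1.41 on day 85 and -1.88 on day 183 (adjusted p = 0.0266 and 0.00105, with 2.21% and 0.640% passing). The day 29 responses of osteoblasts and osteocytes over both doses had opposite signs. Ccn2 fell in osteoblasts (-0.89, adjusted p = 0.00485), a call that ended with signal range as a covariate. It rose in osteocytes (1.26, adjusted p = 0.0391). That call ended without arrays of outlying signal range and in 8 of 14 cases of leaving out 1 array. Both Ccn2 differences on day 85 ended with array weights, with only the groups compared and without replicates 1, 2 or 5. The osteoblast difference on day 183 ended in 4 of 5 left-out replicates. The Ccn4 response fell short on day 183, by -1.17 in osteoblasts and -1.08 in lining cells (adjusted p = 0.0152 and 0.0269). These Ccn4 calls ended in 3 of 5 (osteoblasts) and 5 of 5 (lining cells) left-out replicates. On day 29 the Ccn4 responses of osteoblasts and osteocytes differed by -0.03 (95% interval -0.58 to 0.52). On day 237 after 50 mg/kg, the osteocyte response exceeded that of osteoblasts for Ccn2 (-2.81, adjusted p = 5.12e-07) and Ccn4 (-0.97, adjusted p = 0.0448), and that of lining cells for Ccn2 (-2.37, adjusted p = 2.42e-05) and Ccn4 (-1.29, adjusted p = 0.00396). Of genes tested, 8.48% and 4.25% passed in these 2 comparisons. The Ccn4 difference from osteoblasts was not called when any 1 of the 5 replicate numbers was left out (-1.14 to -0.78), with array weights, with only the groups compared or with adjustment over all such comparisons. That from lining cells was not called with only the groups compared or without replicate 1 (-0.96).

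**Figure D3:**
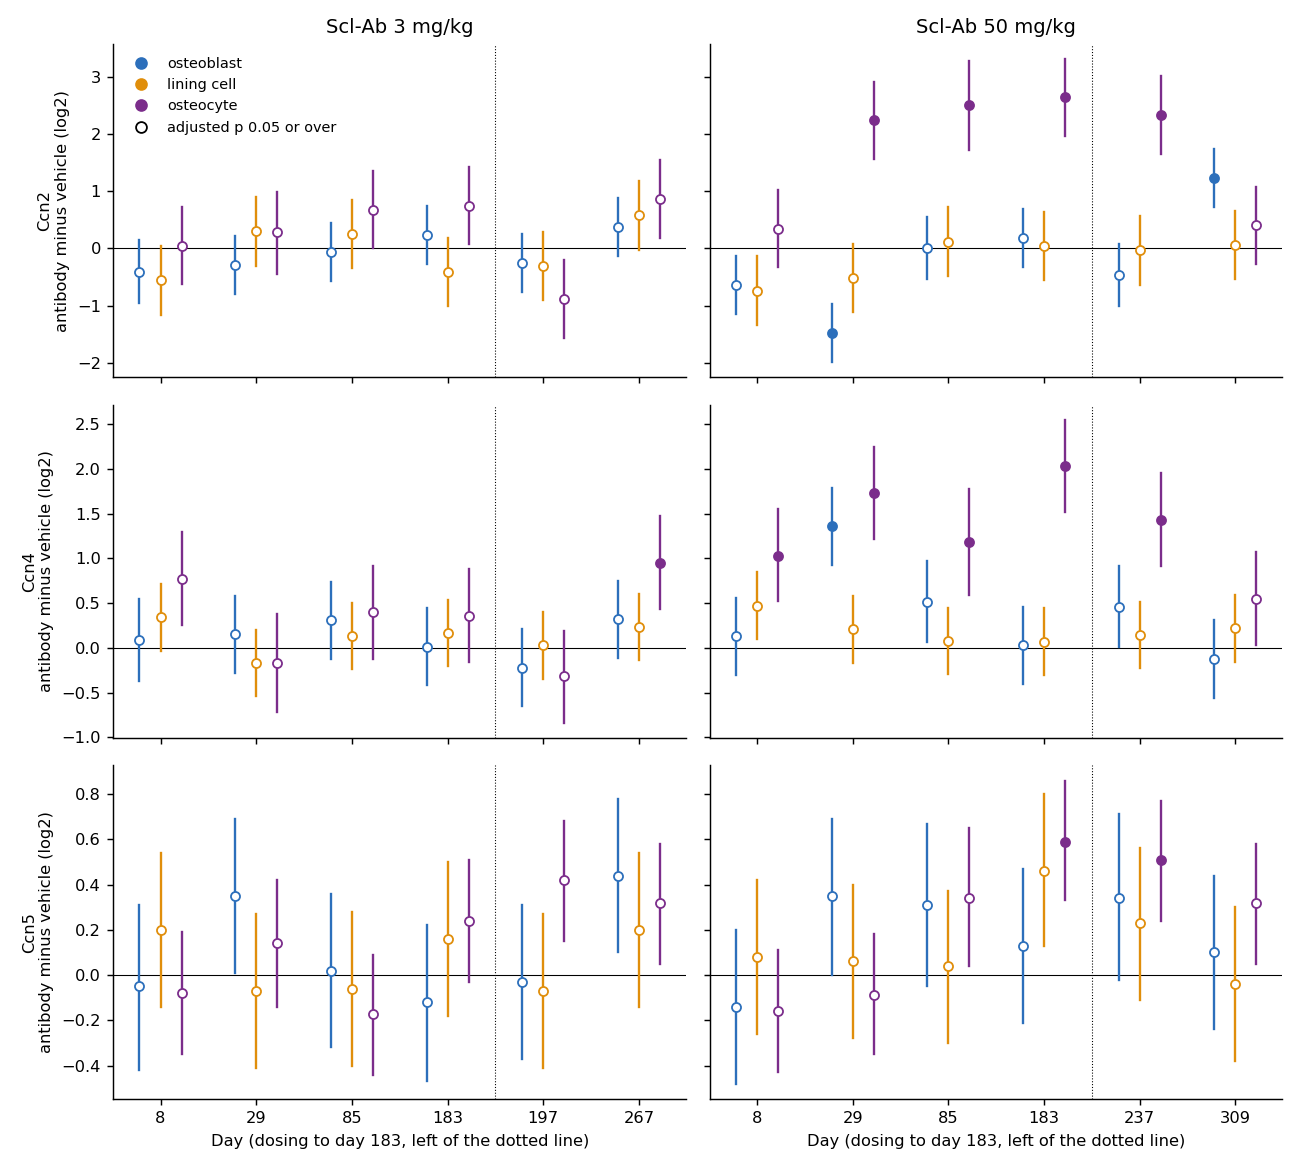
Log2 difference from vehicle of Ccn2, Ccn4 and Ccn5 at each dose and day in the 3 cell types, with 95% intervals from limma; filled points passed the adjusted threshold of 0.05 and open points did not. In osteocytes at 50 mg/kg, Ccn2 lay between 2.24 and 2.64 on days 29, 85, 183 and 237 and at 0.41 on day 309, and in osteoblasts on day 29 it lay at -1.48.

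Levels in vehicle rats differed between cell types and days before any antibody effect. After quantile normalization of the 120 vehicle arrays together, Ccn2 averaged 6.63 ± 0.74 (SD, n = 40) in osteocytes, 5.24 ± 0.81 in osteoblasts and 5.15 ± 0.50 in lining cells. Osteocytes were higher than osteoblasts and lining cells, with differences of -1.38 and -1.48 (adjusted p = 1.33e-20 and 1.95e-22), where 63.8% and 58.5% of genes passed. On the deposited values, whose array medians differ between cell types, these differences were -0.55 and -1.20, and both were called (adjusted p = 3.37e-05 and 3.27e-15). Between osteoblasts and lining cells the difference was 0.10 and did not pass (adjusted p = 0.556, with 33.5% of genes passing), but on the deposited values it was 0.65 and was called (adjusted p = 2.15e-06, with 94.8% passing), so the order of these 2 cell types depends on the scaling. Ccn4 followed the order osteocytes (4.57 ± 0.44), osteoblasts (3.74 ± 0.30) and lining cells (3.43 ± 0.31), each step past the threshold (-0.83 and 0.31, adjusted p = 1.17e-20 and 0.000253). On the deposited values the Ccn4 difference of osteoblasts from osteocytes was -0.08 (adjusted p = 0.268, with 96.9% of genes passing), so that step depends on the scaling, and the step from osteoblasts to lining cells was 0.72. Ccn5 averaged 3.36 ± 0.29 in osteocytes, 3.05 ± 0.21 in osteoblasts and 3.12 ± 0.31 in lining cells, and its differences changed sign on the deposited values, so no order is given.

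Vehicle Ccn2 also varied over the 8 days, in osteoblasts most widely (F = 21.6, adjusted p = 3.17e-15), where 82.2% of genes passed. Its group means there were 6.85 on day 8, 6.72 on day 29, 5.69 on day 85 and 4.57 on day 183, and then 6.00, 6.02, 5.27 and 4.70 on days 197, 237, 267 and 309 (SD 0.14 to 0.90, n = 5). In osteocytes the means were 6.79, 6.11, 6.57 and 5.04 on the dosing days and 7.05, 6.25, 6.15 and 6.29 afterwards (F = 6.26, adjusted p = 2.63e-05, with 68.6% of genes passing). In lining cells they ran from 4.50 on day 183 to 5.72 on day 8 (F = 3.55, adjusted p = 0.00514, with 59.9% passing). Day 183 had the lowest vehicle mean in all 3 cell types. Signal range of vehicle osteoblast arrays was lowest on day 183 as well (2.68, against 3.48 on day 8), and in a fit with signal range as a covariate the Ccn2 test still passed in osteoblasts, osteocytes and lining cells (adjusted p = 2.85e-08, 0.00449 and 0.0429). Age, day of killing and anything processed by day cannot be told apart. Ccn4 varied over days in osteoblasts (F = 3.36, adjusted p = 0.00473) and Ccn5 in osteocytes (F = 3.84, adjusted p = 0.00251), the latter from 2.80 on day 183 to 3.46 on day 237.

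Genes of the pathways around the CCN family were counted in osteocytes at 50 mg/kg, where 0.928%, 6.50%, 10.1% and 6.38% of all genes passed on days 8, 29, 85 and 183, 13.2% on day 237 and 16.4% on day 309. These lists were chosen with earlier results of these data known, so their counts and medians are a description and no test of enrichment. Of 21 YAP-TEAD target genes listed without the CCN members, 19 were tested in osteocytes. At 50 mg/kg, 0 passed on day 8, 6 rose and 0 fell on days 29 and 85, and 5 rose and 1 fell on day 183. Day 29 rises included Tgfb2, a TGF-beta ligand (1.75), the phosphatase Ptpn14 (1.25) and Crim1, a transmembrane BMP regulator (1.15). On day 183 Crim1 (1.77), the IGF-binding protein Igfbp3 (1.55) and Tgfb2 (1.51) led. On day 237, 7 rose and 2 fell, with Tgfb2 at 2.62, and on day 309, 3 rose and 3 fell. The list's median difference was 0.14, 0.27, 0.18 and 0.38 on days 29, 85, 183 and 237, against -0.02, 0.02, 0.00 and -0.01 over all genes tested. In osteoblasts on day 29 at 50 mg/kg, 0 of 18 tested rose and 5 fell, with a median of -0.10 against -0.08 over all genes, of which 28.4% passed.

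Of 15 Hippo pathway genes, 1 rose on day 29 (Amotl1, an angiomotin that binds YAP, 0.80) and 1 on day 183 (Amotl1, 0.96), which is close to the share over all genes on those days. On day 85, 4 rose, among them Nf2, the upstream tumour suppressor merlin (0.94), and Tead1, a DNA-binding partner of YAP (0.68), and on day 237, 3 rose and 1 fell. Of 14 further TGF-beta genes, 5 rose on day 29, 4 on day 85, 3 on day 183 and 5 on day 237, and none fell on those days. They included the ligand Tgfb3 (1.98 on day 29), the latency protein Ltbp1 (1.68 on day 29, 2.02 on day 85 and 0.95 on day 183) and the feedback regulator Skil (1.22 on day 29). The list's median difference was 0.10, 0.28, 0.20 and 0.17 on those days.

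Of 11 Wnt feedback and target genes, 1 rose on day 29, which was Sost itself (0.75), 1 rose and 1 fell on day 85, 0 passed on day 183 and 1 rose on day 237. The median was 0.05 on day 29 and -0.15 on day 183. Of 18 CCN receptors and binding partners, 1 fell on day 29 (Itga6, a laminin-binding integrin chain, -0.78), 2 rose and 1 fell on day 85, among them Notch1 (1.25), 1 rose on day 183 (Fn1, fibronectin, 1.03) and 0 passed on day 237. The counts of the Wnt and receptor lists on days 29, 85 and 183 lie near the shares over all genes given above.

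Genes whose pattern was most like each member over the 60 group means, centred within cell type, were found among 12142 genes by Pearson correlation, as a description. For Ccn2 these were Sema6d, a semaphorin (r = 0.93), Ociad2 (0.91) and the transcription factor Egr2 (0.90). For Ccn4 they were Adgrd1, an adhesion G protein-coupled receptor (0.85), Pdpn (0.85) and Jam2, a junction protein (0.84), and for Ccn5 Clu (0.78), Pecam1 and Gstp1 (both 0.74). Within cell types, r for the Ccn2 genes was 0.96 to 0.97 in osteocytes, 0.86 to 0.89 in osteoblasts and 0.49 to 0.77 in lining cells. In the same order it was 0.86 to 0.92, 0.69 to 0.87 and 0.50 to 0.76 for the Ccn4 genes. For the Ccn5 genes it was 0.69 to 0.80, 0.64 to 0.80 and 0.68 to 0.94. The group means share arrays, vehicle groups and signal range with one another. Between arrays of the same group, Ccn2 and Ccn4 in osteocytes were weakly related (Pearson r = 0.23, Spearman rho = 0.24, n = 97, permutation p = 0.0226 and 0.0196, adjusted over the 3 cell types 0.0679 and 0.0589), with r = 0.18 without the 2 arrays farthest from the Ccn2 median. In osteoblasts r was -0.05 and in lining cells 0.06 (permutation p adjusted 0.65 for both).

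**Figure D4:**
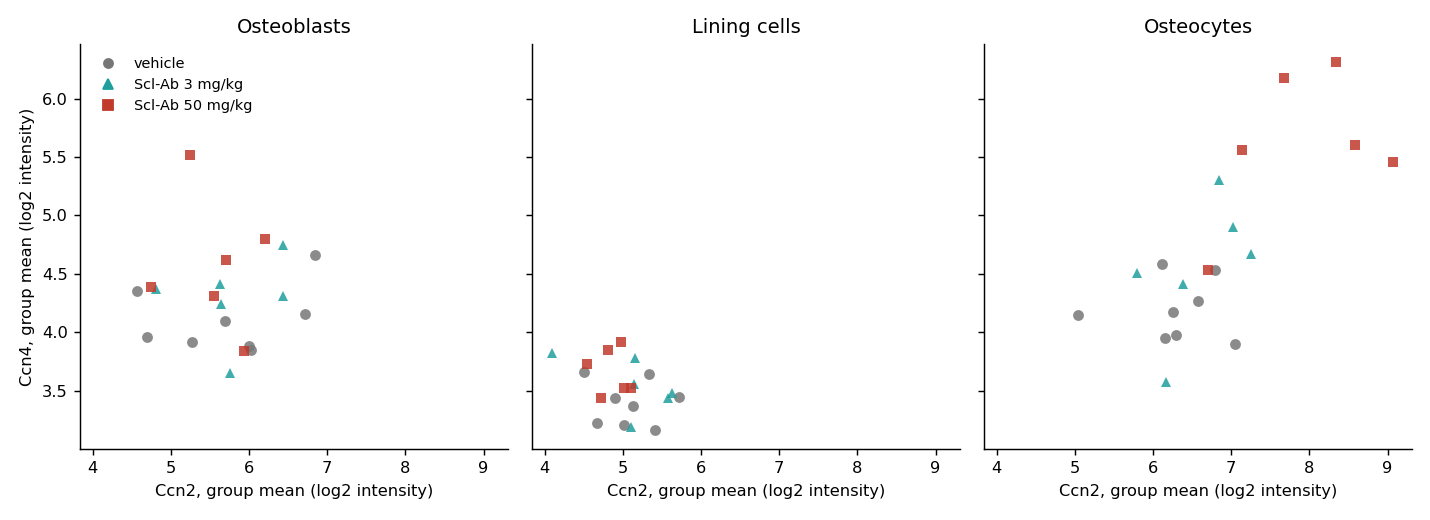
Group means of Ccn4 against Ccn2 in log2 intensity for each cell type, one point per treatment and day, coloured by treatment. In osteocytes the 50 mg/kg groups of days 29, 85, 183 and 237 lie to the upper right, and in osteoblasts the 50 mg/kg group of day 29 lies apart at a Ccn2 mean of 5.24 and a Ccn4 mean of 5.52.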

How the data were processed

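Expression was measured on 294 arrays. The deposited values are array intensities on a linear scale, 2.94 to 28282 over 31042 probe sets. Per the submitters' processing notes, RMA, affy 1.38.1, R 3.0.1 and Affymetrix Expression Console were among the tools, with no role stated. How arrays were grouped at normalization was not stated by the labels. The plan had taken the values for log2, so log2 of the deposited intensity was taken here. Precision is limited by the number of arrays per group (3 to 5). No 2 arrays were identical (0 found), and 0 per-sample columns were left unused. Probe sets listed with 1 gene (20826) were used, 436 with several and 9780 with none were not, and 20758 symbols came from the RefSeq gene table. A gene was represented by its brightest probe set and kept where it was above the array median in at least 5 arrays of a fit.

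Fits used limma 3.58.1 in R 4.3.3, 1 mean per treatment and day within a cell type (11412 genes in osteoblasts, 11600 in lining cells, 11859 in osteocytes), moderated tests and Benjamini-Hochberg adjustment within a contrast at 0.05. Responses between cell types came from a fit of 294 arrays, and vehicle cell types from quantile-normalized vehicle arrays with day as covariate. Scripts were tested on simulated data. The 5 members were named throughout, with up to 3 called genes per list and the 3 genes most like each member. Members and lists were chosen with earlier results of these data known. Dose differences by day and responses between cell types after dosing were added after the data were seen. Alternatives were quantile normalization, array weights, signal range as covariate, no filter, mean of probe sets, only the groups compared, adjustment over a family, leaving out arrays of outlying signal range, leaving out each replicate and, between cell types and added after the data were seen, a replicate block.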

Additional observations from a re-analysis of the deposited data

Results flagged for a closer look

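Each of the 5 members was checked in every group of 4 or 5 arrays, 295 checks in all. In 18 checks, 1 array lay farther from the rest than Dixon's 95% critical value allows, where chance gives about 1 in 20 checks, or 14.8. Ccn1, which was below the array median everywhere, accounted for 9 of them. In lining cells its outlying arrays read 2.82 on day 197 after 3 mg/kg (others 2.16 to 2.35), 2.24 on day 183 and 2.65 on day 8 at 50 mg/kg (others 2.49 to 2.58 and 2.41 to 2.47), and 2.33 on day 29 and 2.30 on day 8 in vehicle (others 2.51 to 2.58 and 2.53 to 2.59). In osteoblasts they read 3.04 on day 183 at 50 mg/kg (others 2.55 to 2.67) and 2.77 on day 197 and 2.80 on day 8 in vehicle (others 2.42 to 2.52 and 2.39 to 2.50). In osteocytes 1 vehicle array read 2.67 on day 85 (others 2.41 to 2.47).

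Ccn2 had 1 low osteoblast vehicle array on day 267 at 4.48 (others 5.31 to 5.59) and 1 high osteocyte array on day 8 at 50 mg/kg at 7.50 (others 6.96 to 7.10). Ccn3 had 1 osteoblast vehicle array on day 8 at 2.89 (others 2.52 to 2.58). Ccn4 had a low lining cell array on day 29 at 50 mg/kg at 3.22 (others 3.90 to 4.08), high vehicle lining cell arrays of 3.87 on day 183 (others 3.57 to 3.64) and 4.32 on day 85 (others 3.11 to 3.40), and a vehicle osteoblast array of 4.11 on day 309 (others 3.90 to 3.94). Ccn5 had high osteoblast arrays of 3.57 on day 183 at 3 mg/kg (others 3.01 to 3.10) and 4.03 on day 309 after 50 mg/kg (others 3.35 to 3.46). No osteocyte group of Ccn2 or Ccn4 after day 8 held such an array, and the group of 3 arrays on day 85 was not tested.

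The responses of Ccn2 and Ccn4 differed between cell types by a test of the difference itself in 15 comparisons, all lower than in osteocytes. In these comparisons 0.488% to 8.48% of all genes passed. They overlap, since the mean over the dosing days holds the single days. Comparisons that did not pass, among them all between osteoblasts and lining cells, are not in this number. For Ccn2, osteoblasts minus osteocytes gave -2.14, -1.62 and -1.48 on days 29, 85 and 183, -1.49 over the dosing days and -2.81 on day 237 after 50 mg/kg. Lining cells minus osteocytes gave -1.41 and -1.88 on days 85 and 183, -1.37 over the dosing days and -2.37 on day 237. For Ccn4, osteoblasts minus osteocytes gave -1.17 on day 183, -0.59 over the dosing days and -0.97 on day 237, and lining cells minus osteocytes gave -1.08, -0.76 and -1.29.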

How the results depend on the processing

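The osteocyte rises of Ccn2 at 50 mg/kg on days 29, 85, 183 and 237 and of Ccn4 on days 29, 183 and 237 kept their direction and call under all 8 alternatives each and when each array was left out, as did the osteoblast calls of Ccn2 and Ccn4 on day 29. The Ccn4 call in osteocytes on day 8 ended in 7 of 10 cases of leaving out 1 array, and that on day 85 with array weights. Of the response differences from osteocytes by day, those of Ccn2 on day 85 ended with array weights, with only the groups compared, for lining cells also with adjustment over all contrasts, and without replicates 1, 2 or 5 (-1.97 to -1.41 for osteoblasts, -1.63 to -1.21 for lining cells). The osteoblast difference of Ccn2 on day 183 ended in 4 of 5 left-out replicates, and the Ccn4 differences on day 183 in 3 of 5 (osteoblasts) and 5 of 5 (lining cells), and on day 237 in 5 of 5 and 1 of 5. The osteoblast Ccn4 difference over the dosing days was 0.33 with only the groups compared (adjusted p = 0.0615), and its response difference from osteocytes ran from -0.69 to -0.51 without each replicate.

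Between vehicle cell types, Ccn2 in osteoblasts minus lining cells was -0.14 with signal range as covariate and 0.65, which was called, on deposited values. Ccn4 in osteoblasts minus osteocytes was -0.08 on deposited values, and Ccn5 was 0.22 for osteoblasts minus osteocytes, 0.01 for lining cells minus osteocytes and 0.21 for osteoblasts minus lining cells. The deposited values differ in array median between cell types. In lining cells 1 comparison was called with array weights, where 0 were called otherwise. Numbers of genes called moved by over 1.5 times: in osteoblasts on day 29 at 50 mg/kg from 3241 to between 531 and 4588 and on day 309 from 1203 to between 0 and 1833, in osteocytes at 50 mg/kg from 110 to between 38 and 721 on day 8, 771 to between 437 and 1348 on day 29, 1203 to between 127 and 1633 on day 85 757 to between 526 and 1634 on day 183 and 1566 to between 783 and 1903 on day 237. For responses over the dosing days they went from 446 to between 229 and 710 (osteoblasts minus osteocytes) and from 334 to between 201 and 518 (lining cells minus osteocytes), and on day 237 from 1060 to between 437 and 1525 and from 532 to between 179 and 777. The cause was not tested. The labels do not name the rat, and replicate numbers follow accession order. Across genes, arrays with the same number in 2 cell types of a treatment and day nevertheless deviated together more than others. The median r was 0.14 to 0.18, against -0.05 to -0.04 for other numbers. The best match had the own number in 53 to 61 of 80 arrays per pair of cell types, and 51 to 57 of 80 same-number pairs were over 0.1. That same-numbered arrays share a rat is a hint from these values, which the labels do not state. A replicate block on these numbers in the 16 complete treatment and day sets, added after seeing the data, gave a correlation of 0.12 for responses and 0.05 for vehicle. It kept every called difference of Ccn2, Ccn4 and Ccn5 between cell types (for Ccn4 on day 237, -0.97, adjusted p = 0.0341) and added 1, Ccn2 in osteoblasts minus lining cells on day 309 after 50 mg/kg (1.17, adjusted p = 0.0309). Genes called for osteoblasts minus osteocytes went from 446 to 653 over the dosing days and from 61 to 162 on day 183. Using another probe set of a member was not run, since each member has 1. Low signal limits Ccn1, Ccn3 and much of Ccn5, where a change could go undetected.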
